A study of Oryctolagus cuniculus with 8 samples.

Results

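The 5 genes described here are AQP4, APOE, ALDOC, ALDH1L1 and ATP1B2, which in the brain are known mainly from astrocytes and serve water movement, lipid transport, sugar breakdown, folate metabolism and sodium and potassium pumping. They were chosen by name: every probe on the array that was not a control and whose gene name or description gave one of the 5 symbols or full names was taken. This gave 7 probes of 43603, for 5 of the 23429 genes and transcripts with a probe. AQP4 and ATP1B2 each had 2 probes and the other 3 genes had 1 each. Another 2 probes described as similar to ALDH1L1 belong to its paralog ALDH1L2 in the RefSeq gene table and were kept apart.

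RNA came from the forebrain of New Zealand rabbit pups born preterm by Caesarean section at gestational day 29 (term is day 32) and killed at postnatal day 14. The 4 dexamethasone pups had received this synthetic glucocorticoid in the muscle at 0.25 mg/kg, 2 times a day for no more than 5 days. The design text calls the samples of a group biological replicates. The 4 saline pups had received the vehicle alone, and all pups of both groups were born preterm, so none stands for a term-born animal. The series asked, in its title, whether glucocorticoids after birth hold back the formation of myelin. Each of 4 Agilent rabbit arrays carried 2 samples of the same group, with samples 1 and 3 labelled with the dye Cy3 and samples 2 and 4 with Cy5. The 2 dexamethasone arrays shared 1 slide and scan and the 2 saline arrays shared another, so slide, scan and treatment cannot be told apart.

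Astrocytes wrap their end-feet around blood vessels, and AQP4 is the water channel of those end-feet. APOE is the main lipid carrier that astrocytes release, and neurons and oligodendrocytes take up the cholesterol it brings. ALDOC is the brain form of the glycolytic enzyme aldolase, ALDH1L1 removes the formyl group from a folate and serves as a marker of astrocytes as a class, and ATP1B2 is the beta 2 subunit of the sodium and potassium pump, first described as an adhesion molecule of glia. In bulk forebrain RNA, fewer cells of a type and less RNA per cell cannot be told apart.

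ALDOC and APOE had higher mean levels in dexamethasone forebrains, both ATP1B2 probes had lower levels, and the intervals of AQP4 and ALDH1L1 held 0. None of the 5 passed the test, limma across all 10794 genes tested with Benjamini-Hochberg adjustment at 0.05. In that test 7 genes passed, 2 of them higher with dexamethasone and 5 lower, which is 0.0649% of those tested. At an unadjusted p under 0.05, APOE and ALDOC were higher and ATP1B2 was lower, 3 of 5 genes. Among all genes 14% had such a p, 6.36% higher and 7.62% lower with dexamethasone. With 5 genes, these counts describe the set and test nothing about it.

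The array's probes are 60 bases long, so a level is the brightness of 1 short stretch of the mRNA. Levels are log2 normalised intensities, which compare samples for a given probe and do not rank one probe against another. The probes whose values matter most are shown first, each as the array files give it, 5′ to 3′. The APOE and ALDOC probes stand for the genes with higher means, and the ATP1B2 pair is shown because capitals mark the 59 bases that both probes share, shifted by a single base.
APOE: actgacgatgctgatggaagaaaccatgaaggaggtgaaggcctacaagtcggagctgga
ALDOC: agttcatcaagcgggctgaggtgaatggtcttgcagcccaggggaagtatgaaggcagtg
ATP1B2, first probe: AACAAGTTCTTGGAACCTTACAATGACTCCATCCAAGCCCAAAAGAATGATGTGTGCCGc
ATP1B2, second probe: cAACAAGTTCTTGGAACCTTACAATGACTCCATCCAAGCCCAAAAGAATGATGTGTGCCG

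On the build oryCun2, as named in the array files, the ALDOC probe lies on the plus strand at chr19:19583138-19583337, a span of 200 bases for a probe of 60. The 2 ATP1B2 probes lie on the minus strand at chr19:11544816-11544975 and chr19:11544817-11544976, each spanning 160 bases. The files place the AQP4 probes on the minus strand at chr9:68091483-68091542 and chr9:68091592-68091651 and the ALDH1L1 probe on the minus strand at chr9:5587280-5587339, each over 60 bases. The APOE probe has no position in the files. None of the 7 probes shares a run of 16 bases with a probe of another gene on the array. All 7 were well above background in 8 of 8 samples and 0 spots were saturated.

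The water channel AQP4 was measured by 2 probes that do not overlap. The first read 11.08, 11.01, 10.84 and 11.33 in dexamethasone 1 to 4, against 10.83, 11.24, 10.68 and 11.10 in saline 1 to 4. The groups overlapped, and saline 3 was lowest and dexamethasone 4 highest. The mean was 11.06 ± 0.20 with dexamethasone and 10.96 ± 0.25 with saline (SD, n = 4 each), a log2 difference of 0.10 with a 95% interval from -0.20 to 0.41 and an adjusted p of 0.723 in limma. The second probe read 10.18, 10.00, 9.99 and 10.25 with dexamethasone, against 9.59, 10.05, 9.98 and 9.99 with saline. Here saline 1 stood below every other sample, and the groups overlapped only through saline 2, since saline 1, 3 and 4 lay below every dexamethasone sample, saline 3 and saline 4 narrowly. The difference at this probe was 0.20 (95% interval -0.12 to 0.52). The interval of either probe holds 0, and a difference above 0.52 lay outside both.

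APOE showed a higher mean with dexamethasone and a wide spread within that group. Its levels were 11.46, 10.62, 11.42 and 11.10 in dexamethasone 1 to 4, against 10.65, 10.64, 10.95 and 10.51 in saline 1 to 4. Dexamethasone 1, 3 and 4 were above all saline samples, and dexamethasone 2 lay among them. The mean was 11.15 ± 0.39 with dexamethasone and 10.69 ± 0.19 with saline (SD, n = 4 each), and the log2 difference of 0.46 ± 0.17 (SE) had an adjusted p of 0.338 in limma. Within the Cy3 samples the difference was 0.64 and within the Cy5 samples 0.29, each from 2 samples a group. APOE was thus higher in both dyes, but it did not pass the threshold.

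ALDOC had the largest mean difference of the 5 genes. It read 13.82, 13.20, 13.89 and 13.74 in dexamethasone 1 to 4, against 12.72, 13.01 and 13.27 in saline 1, 2 and 4. The scanner software marked the spot of saline 3 as an outlier, so the fit left it out. Dexamethasone 1, 3 and 4 were above all saline samples, and dexamethasone 2 fell just below saline 4, so the groups overlapped. The mean was 13.66 ± 0.32 with dexamethasone (SD, n = 4) and 13.00 ± 0.28 with saline (SD, n = 3). The log2 difference was 0.63 ± 0.24 (SE), with a 95% interval from 0.07 to 1.18 and an adjusted p of 0.347 in limma. With the outlier spot kept, saline 3 read 13.17, inside the range of the other saline samples, and the difference was 0.61 with an adjusted p of 0.331.

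The size of the ALDOC difference depended on saline 1. It was 1.14 within Cy3, where saline 1 is the only saline sample left, and 0.33 within Cy5. Without saline 1 it was 0.33, which is the Cy5 difference again, so dye and that sample cannot be told apart. Without the array of saline 1 and saline 2 it was 0.20, with saline 4 as the only saline value. In the authors' deposited table, whose signals are scaled to each column, ALDOC stood at 64.8, 55.4, 70.3 and 67.0 in dexamethasone 1 to 4, against 32.1, 37.3 and 44.4 in saline 1, 2 and 4. Those groups did not overlap, since each dexamethasone value exceeded each saline value used, with saline 3 left out here too. The share of all genes without overlap was not computed for that table.

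ALDH1L1 was nearly level across the 8 samples. Its probe read 10.77, 10.64, 10.90 and 10.95 with dexamethasone, against 10.75, 10.77, 10.90 and 10.78 with saline. The highest and the lowest sample were both dexamethasone samples, and every saline sample lay between them. The means were 10.82 ± 0.14 with dexamethasone and 10.80 ± 0.07 with saline (SD, n = 4 each). The log2 difference of 0.02 had a 95% interval from -0.22 to 0.25 and an adjusted p of 0.952 in limma, so larger differences than these bounds lay outside the interval.

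ATP1B2 was the single gene of the 5 whose groups did not overlap in the normalised levels. The first probe read 8.67, 8.48, 8.64 and 8.72 with dexamethasone, against 9.0, 8.78, 9.52 and 9.29 with saline. The second read 8.72, 8.39, 8.81 and 8.82 with dexamethasone, against 9.25, 8.95, 8.94 and 8.89 with saline. At both probes each dexamethasone sample lay below each saline sample, by as little as 0.06 between dexamethasone 4 and saline 2 at the first. Groups that did not overlap, with dexamethasone lower, were found for 7.6% of all genes tested and 5.86% of all probes tested, where each group had 3 or 4 values. In the authors' deposited table, however, the groups overlapped at both probes. There dexamethasone 1 stood at 1.34 and saline 2 at 0.944 at the first probe. At the second, dexamethasone 3 stood at 1.58 and saline 4 at 1.02.

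The first ATP1B2 probe averaged 8.63 ± 0.10 with dexamethasone and 9.15 ± 0.32 with saline (SD, n = 4 each). The log2 difference was -0.52 ± 0.16 (SE) with a 95% interval from -0.89 to -0.15, and limma's adjusted p over genes was 0.306. The second averaged 8.68 ± 0.20 with dexamethasone and 9.01 ± 0.16 with saline (SD, n = 4 each), a difference of -0.32 ± 0.13 (SE) with an adjusted p over probes of 0.384. Within the dyes the difference was -0.61 in Cy3 and -0.44 in Cy5 at the first probe, and -0.33 and -0.31 at the second. Because the groups did not overlap, the same direction in each dye follows from that and adds nothing to it.

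**Figure D1:**
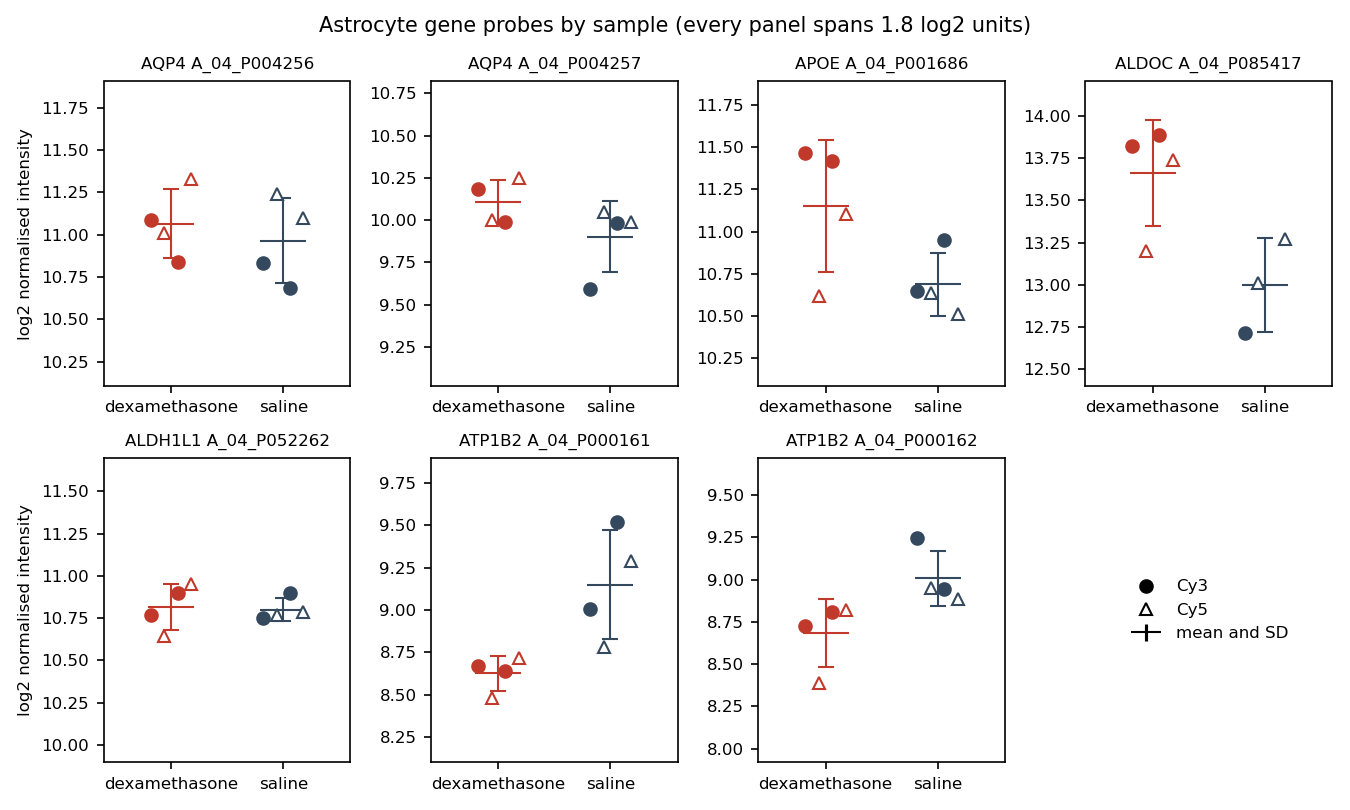
Each panel plots 1 probe, with the log2 normalised intensity on the y axis and dexamethasone samples left of saline samples; filled circles are Cy3, open triangles Cy5, and bars the mean and SD. The ATP1B2 probes show every dexamethasone sample below every saline sample, while the groups overlap at both AQP4 probes and at ALDH1L1; ALDOC has 3 saline samples because the spot of saline 3 was left out.

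The 2 ATP1B2 probes read almost the same stretch, so the gap between them in a sample measures how far 2 spots of 1 target can disagree. With dexamethasone the first probe minus the second ran from -0.17 to 0.09. With saline it was -0.24 in saline 1, -0.17 in saline 2, 0.58 in saline 3 and 0.41 in saline 4. The gap was thus widest on the array of saline 3 and saline 4, and there it was about as large as the difference between the groups. Without that array the first probe's difference was -0.27, and without the array of saline 1 and saline 2 it was -0.78 with an adjusted p of 0.00726, which passed along with 2149 genes in all in that fit. Probes spotted 5 times on these arrays had a median SD between spots of 0.17 to 0.24 log2 units in a sample. This is an SD of single spots over 17 to 19 probes, a different measure from a gap between 2 spots.

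Each probe's raw signal was also set against its own local background. For ATP1B2 it was 6.44 to 15.0 times background over both probes and 8 samples, for ALDOC 120.1 to 686 times and for ALDH1L1 32.4 to 80.1 times. AQP4 lay at 12.5 to 102 times over both probes, and APOE at 25.8 to 84.8 times.

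Measured paralogs give each gene a comparison within its own family. Among aquaporins, AQP9, which also passes glycerol, had a level of 8.44 ± 0.05 with dexamethasone and 8.30 ± 0.07 with saline (SD, n = 4 each), a difference of 0.14 with an adjusted p of 0.476. That probe was dim, well above background in 3 dexamethasone and 2 saline samples, and the other fitted AQP9 probe differed by 0.08. AQP1, the water channel of the choroid plexus, did not rise well above background in any of the 8 samples, nor did APOA1, the apolipoprotein of plasma HDL. Among aldolases, ALDOA, the muscle form that most tissues also use, stood 0.25 higher in dexamethasone forebrains (95% interval -0.10 to 0.60), where ALDOC stood 0.63 higher. Neither of these aldolases passed the test.

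Among the other beta subunits of the pump, ATP1B1 and ATP1B3 were bright but could not be tested at the gene level, because outlier marks left only 2 saline values at their brightest probes. With outlier spots kept, ATP1B1, the most widespread form, differed by 0.23 (adjusted p 0.507 in limma) and ATP1B3 by 0.05 (adjusted p 0.918). A dimmer ATP1B3 probe, fitted with outlier spots left out and 3 saline values, differed by 0.18 (limma's adjusted p over probes 0.638). These point estimates lay above 0 while that of ATP1B2 lay below. The difference between the subunits' responses was not tested. ALDH1L2, the mitochondrial form of ALDH1L1, was well above background in 1 dexamethasone sample and in 0 saline samples, so no difference was fitted for it.

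**Figure D2:**
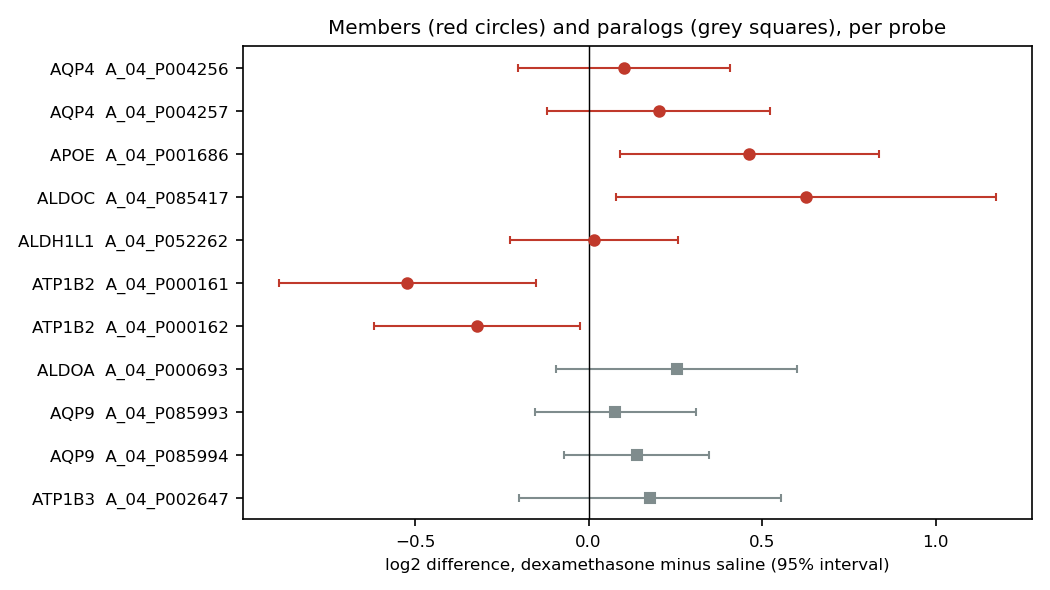
The x axis gives the log2 difference, dexamethasone minus saline, of each fitted probe with its 95% interval; red circles are the 5 genes and grey squares the paralogs AQP9, ALDOA and ATP1B3. The intervals of APOE, ALDOC and both ATP1B2 probes lie to one side of 0, before adjustment for the number of probes tested.

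Other genes of the same pathways were read from lists, each described by its counts and its median beside all genes. Over all 10794 genes 53.9% had a difference above 0 and the median was 0.02. In limma 0 genes of any list passed the adjusted threshold. An unadjusted p under 0.05, which 14% of all genes had, was found for 1 of 11 genes for water and ion handling, 4 of 17 for lipid transport, 1 of 15 for glycolysis, 0 of 20 for folate and 1 of 12 other astrocyte genes. All of these were higher with dexamethasone except 3 of the 4 lipid genes, and with outlier spots kept the other astrocyte genes held 0 of 13. In Cy3 the share of spots well above background was 48.8 and 47.7% in dexamethasone 1 and 3, against 42.5 and 39.1% in saline 1 and 3. In Cy5 it was 64.3 and 62.9% in dexamethasone 2 and 4, against 52.9 and 59.7% in saline 2 and 4. Within each dye the saline samples were thus lower. Outlier marks took out 197 to 509 spots in each dexamethasone sample and 932 to 3022 in each saline sample. They left 1000 of 11794 genes untested, among them 602 of the 1335 genes with a mean level above 12, so the lists are also given with those spots kept. The part of either in the results was not tested.

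For water and ion handling, 11 genes were tested besides AQP4 and ATP1B2, 7 of them above 0 and 4 below, with a median of 0.04 that ran from 0.011 to 0.12 when 1 sample was left out. AQP11, an aquaporin of internal membranes, differed by 0.41 (adjusted p 0.305) at its brightest probe. Its groups there did not overlap, as held for 5.88% of all genes with dexamethasone higher. The other fitted probes of AQP11 differed by 0.04, 0.23 and 0.44. DAG1, whose product dystroglycan anchors AQP4 at end-feet, differed by 0.17 (adjusted p 0.462), and AQP8 by -0.17 (adjusted p 0.471). KCNJ10, the potassium channel that shares the end-feet with AQP4, was well above background in 0 of 8 samples. With outlier spots kept the list held 13 tested genes and its median was 0.05.

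For lipid transport, 17 genes were tested besides APOE, 5 above 0 and 12 below, with a median of -0.13. Leaving out any 1 sample brought that median closer to 0, to between -0.088 and -0.015, and without the array of saline 3 and saline 4 the median difference of apolipoprotein and lipid transport was 0.0039. Relative to all genes it was 0.53 with no normalisation between arrays and 0.34 at the 75th percentile. NR1H3, the liver X receptor alpha that switches on cholesterol export genes, differed by -0.40 (adjusted p 0.214). Its groups did not overlap, as held for 7.6% of all genes with dexamethasone lower. ABCA1, which loads cholesterol on to apolipoproteins, differed by -0.36 (adjusted p 0.339) at its brightest probe and by -0.0086 and -0.19 at its others. LPL, which releases fatty acids from lipoproteins, differed by -0.61 (adjusted p 0.357). APOB, the apolipoprotein of low-density lipoproteins, differed by 0.36 (adjusted p 0.321) at its brightest probe and by 0.13 at another. At the brightest its groups did not overlap either, as held for 5.88% of all genes with dexamethasone higher. Under these 2 scalings, taken relative to the median of all genes, a step chosen after the data were seen, NR1H3 and APOB changed sign, as did AQP8, AQP9, SLC16A7 and CBS. As fitted without normalisation between arrays, NR1H3 stood at -0.11 and AQP8 at -0.41, with the sign they had, while AQP11, PYGB, GGH, GART, SLC1A2, DAG1 and AMT lay below 0, from -0.63 for AMT to -0.076 for GART. The sign of these genes thus depends on how the arrays are set against each other. With outlier spots kept 20 genes were tested, 8 above 0 and 12 below, and the median was -0.03. The added genes included APOD at 0.84 (adjusted p 0.29), so the list's median moved when those spots were kept.

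For glycolysis, lactate and glycogen, 15 genes were tested besides ALDOC, 11 above 0 and 4 below, with a median of 0.12 that ran from -0.0044 to 0.22 when 1 sample was left out. SLC16A7, a monocarboxylate carrier, differed by 0.38 (adjusted p 0.321) at its brightest probe and by 0.21 at another. GPI, the isomerase of the second step, differed by 0.32 (adjusted p 0.374). PYGB, the brain glycogen phosphorylase, differed by 0.28 (adjusted p 0.365) at its brightest probe and by 0.07 to 0.32 at its others. PGM1, which links glycogen with glycolysis, differed by 0.27 (adjusted p 0.44). With outlier spots kept 22 genes were tested, 17 above 0 and 5 below, with a median of 0.08. Of those added, GAPDH differed by 0.01, PKM by 0.01, PGK1 by 0.06, ENO1 by 0.13 and LDHA by 0.26. LDHB differed by -0.05 and PFKP by -0.40, where ALDOC differed by 0.61 in the same fit.

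For folate and one-carbon metabolism, 20 genes were tested besides ALDH1L1, 17 above 0 and 3 below, with a median of 0.11 (0.094 to 0.15 when 1 sample was left out), while ALDH1L1 itself stood at 0.02. GGH, which trims the glutamate tail of folates, differed by 0.37 (adjusted p 0.401), AMT of the glycine cleavage system by 0.31 (adjusted p 0.411), and PSAT1 of serine synthesis by 0.26 (adjusted p 0.479). GART of purine synthesis differed by 0.41 (adjusted p 0.411) at its brightest probe, with 3 saline values, and by 0.08, -0.014 and -0.016 at its other 3 probes. Leaving out 1 sample gave 0.12 to 0.53 for GART. The list's mean deviation per sample ran from -0.03 to 0.19 with dexamethasone and from -0.11 to -0.05 with saline, and none of its genes had an unadjusted p under 0.05.

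Of 12 other astrocyte genes tested, 7 were above 0 and 5 below. Their median was 0.04 and ran from -0.0072 to 0.26 when 1 sample was left out, and the mean deviation per sample ran from -0.17 to 0.12 with dexamethasone and from -0.16 to 0.11 with saline. SLC1A2, the main glutamate transporter, differed by 0.35 (adjusted p 0.357), CST3 by 0.40 (adjusted p 0.374) at its brightest probe and -0.17 at another, CBS by 0.35 (adjusted p 0.357) and ALDH1A1 by -0.34 (adjusted p 0.434). Of the defining markers, S100B, GLUL and GJA1 were well above background in 8 of 8 samples, and GFAP in 2 dexamethasone samples and 1 saline sample.

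Markers of other cells in the tissue were given the same way, and their part in the results above was not tested. Of neuron markers, 7 of 10 tested were above 0 (median 0.12), with mean deviations from -0.26 to 0.34 with dexamethasone and from -0.08 to 0.04 with saline. Of oligodendrocyte markers, 5 of 9 were above 0 (median 0.03), and 3 higher and 2 lower with dexamethasone had an unadjusted p under 0.05, with mean deviations from -0.16 to 0.15 with dexamethasone and from -0.05 to 0.10 with saline. Choroid plexus and ependyma markers had the highest median, 0.52, with 6 of 7 above 0 and ranges from -0.39 to 0.68 with dexamethasone and from -0.73 to 0.11 with saline. The medians were 0.20 for 7 endothelial and pericyte markers, 0.17 for 5 blood markers and -0.05 for 4 microglia markers, each with overlapping ranges. An unadjusted p under 0.05 was found for 2 lower neuron markers, 1 higher and 1 lower choroid plexus or ependyma marker, 1 higher vessel marker, 2 lower blood markers and 0 microglia markers. When 1 sample was left out the median ran from 0.16 to 0.79 for choroid plexus and ependyma, from 0.050 to 0.36 for vessels, from -0.043 to 0.21 for neurons, from -0.10 to 0.14 for oligodendrocytes, from -0.14 to -0.013 for microglia and from -0.36 to 0.30 for blood. PECAM1, FLT1, KDR and PDGFRB of the vessels, FOXJ1, CLIC6 and AQP1 of the choroid plexus and ependyma, OPALIN of oligodendrocytes, PTPRC of microglia and CD3E of blood were well above background in 0 of 8 samples. Well above background in 8 of 8 samples were 3 of 12 markers with a probe for vessels and 5 of 11 for choroid plexus and ependyma. The same held for 7 of 12 for oligodendrocytes, 2 of 7 for microglia and 4 of 8 for blood. The remaining markers of these lists were well above background in only some samples.

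**Figure D3:**
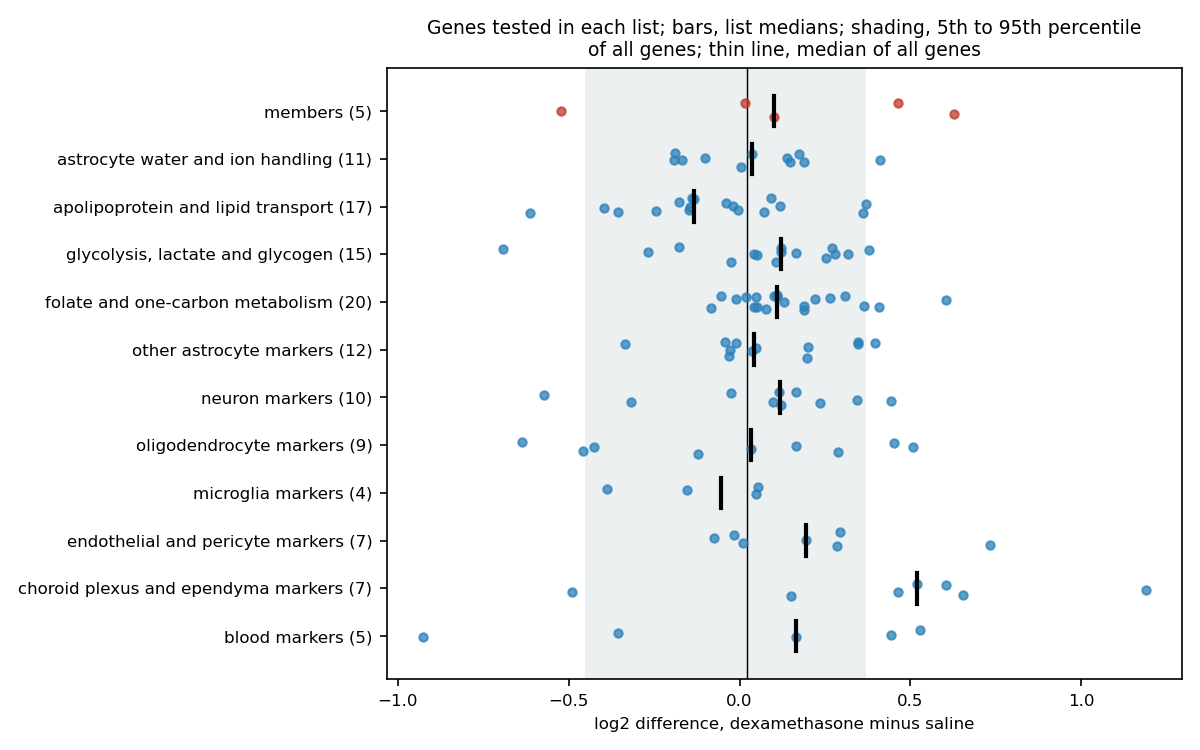
Each point is 1 tested gene, with its log2 difference, dexamethasone minus saline, on the x axis and its list on the y axis, where the number tested stands in brackets; thick bars are list medians, and shading spans the 5th to 95th percentile of all genes. ALDOC, APOE and ATP1B2 lie outside the shaded range, and the list medians lie between -0.13 and 0.20 apart from that of choroid plexus and ependyma markers at 0.52.

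Over 8 samples, with the mean of each dye taken out, APOE had a Pearson correlation of 0.65 with AQP4, 0.49 with ALDH1L1 and -0.55 with ATP1B2. The samples share arrays in pairs, so these values are descriptions. Among 5511 genes with a symbol and all 8 values, the pattern most like AQP4 was that of AASS (r = 0.98), then C1D and FOXP2 (both 0.97). Most like APOE were STT3A (0.99), CDO1 and AATF (both 0.98), most like ALDH1L1 were ATP6V0E1 (0.99), LRRC3B (0.95) and PDIA5 (0.94), and those most like ATP1B2 included NCAPH (0.99) and WDR31 (0.98). ALDOC was left out because its spot in saline 3 was left out.

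The scaling of the arrays gave the largest shifts of AQP4, APOE, ALDOC and ALDH1L1. Without normalisation between arrays the median of all genes shifted to -0.64, and with each channel scaled to its 75th percentile to -0.30. At the 75th percentile 2224 genes passed, 48 of them higher with dexamethasone, against 2 higher of 7 as reported. Taken as fitted there, ALDOC differed by 1.1 (adjusted p 0.0365) and ATP1B2 by -1.05 (adjusted p 0.0311), and both passed. Taken relative to the median of all genes, a step chosen after the data were seen, ALDOC differed by 1.41 (adjusted p 0.0861) and ATP1B2 by -0.75 (adjusted p 0.0959), and neither passed. APOE, ALDOC and ATP1B2 kept their direction under every setting run, AQP4 came to -0.0014 without dexamethasone 1, and ALDH1L1 changed sign in 6 settings.

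**Figure D4:**
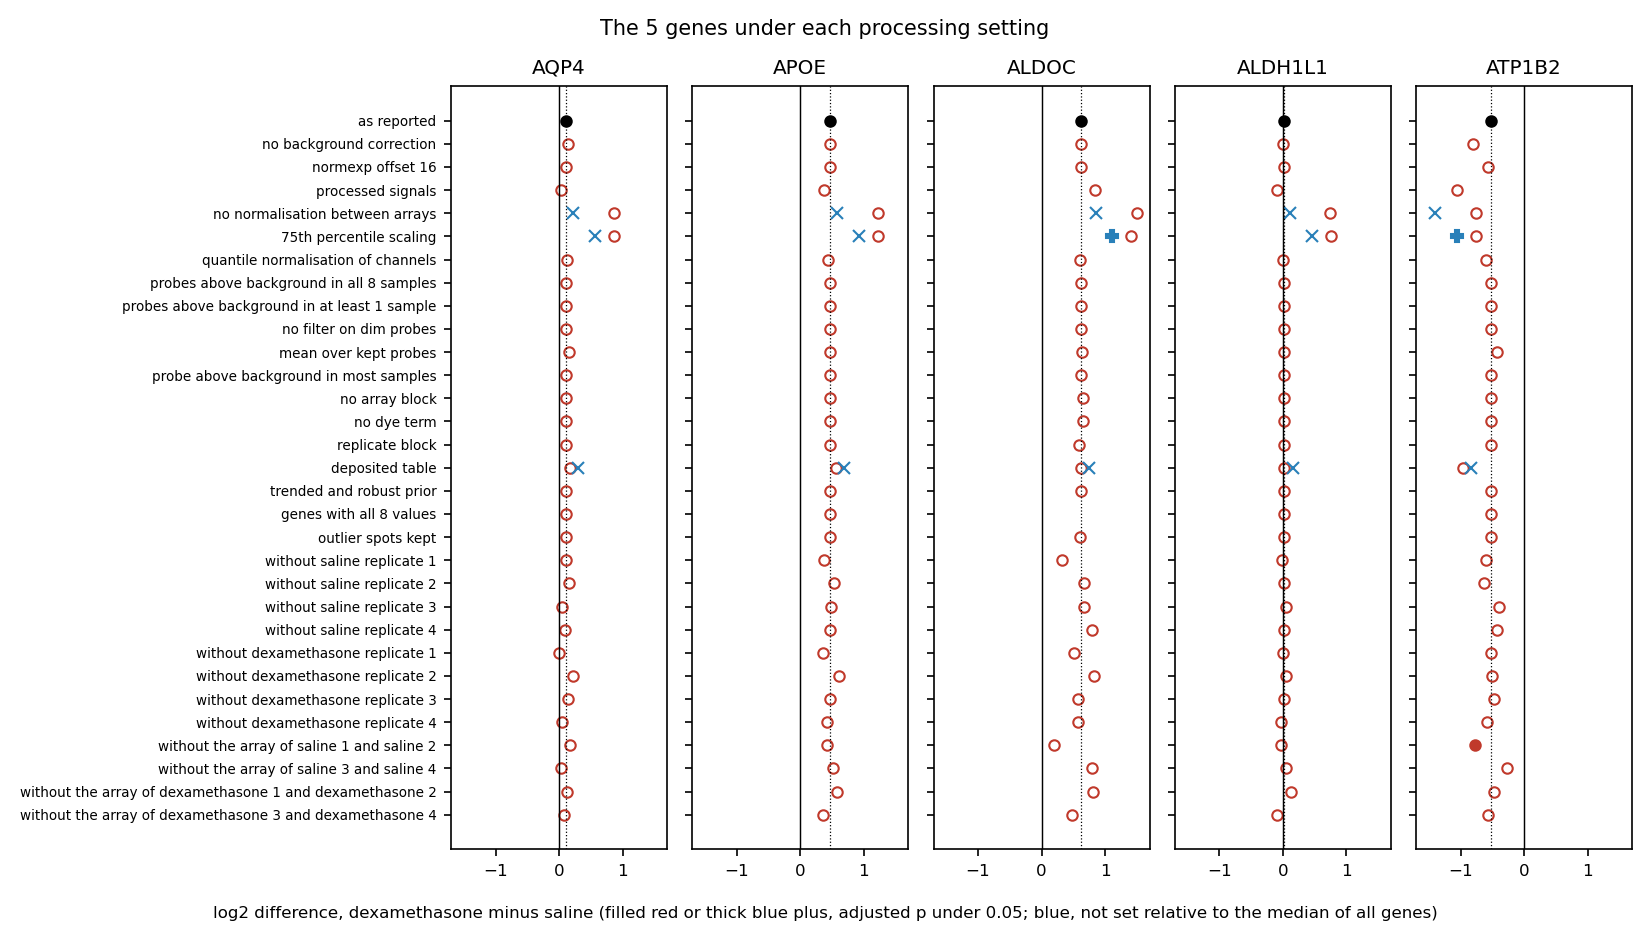
The x axis gives the log2 difference, dexamethasone minus saline, of each gene under each processing setting listed on the y axis; the black point is the value reported, red circles are alternatives, and blue crosses the same values not set relative to the median of all genes. APOE and ALDOC stay right of 0 and ATP1B2 left of 0 under each setting, and AQP4, APOE, ALDOC and ALDH1L1 shift most where arrays were not normalised to each other or were scaled to the 75th percentile.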

How the data were processed

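Forebrain RNA of 4 dexamethasone and 4 saline pups was measured in single channels of 4 Agilent 2-colour arrays. The deposited scanner files give the mean and background median intensity of each spot, and a processed signal. Per the file headers the software was Agilent Feature Extraction 11.0.1.1, while the submitters' processing notes name 10.7.3.1. The deposited table gives a scaled signal per spot. Probes were named from the array and the RefSeq table of mOryCun1.1, which gave a symbol to 22464 of 43603 probes. No protein or promoter table was used here, so probes were not placed within the coding sequence.

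From these, intensities were corrected with normexp (offset 50), normalised by loess within and Aquantile between arrays, and taken as log2 per channel, with outlier spots left out. The 23165 probes that stood well above background in 4 or more samples were kept, the brightest stood for a gene, and a gene needed 3 values a group. Groups were compared with limma 3.58.1 in R 4.3.3, with dye as a term and array as a random block (correlation 0.240), adjusted by Benjamini-Hochberg over 10794 genes. The number of arrays limits the precision.

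The 5 genes, lists and tests were chosen with earlier results of these data known. The rule for names took up to 4 genes with the smallest p of each list, measured paralogs, and the 3 genes most like each of the 5. Some items that the rule gives are not reported here. Beside these, the pathway and astrocyte lists are named in full by this rule, and the lists of other cell types by counts. The glycolysis genes added with outlier spots kept, APOD and markers below background were named after their values were seen. Alternatives covered background, normalisation, filters, probe rule, block, dye, prior and samples left out. Where an alternative moved the median of all genes by over 0.1, gene values were also taken relative to it, a choice made after the data were seen.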

Additional observations from a re-analysis of the deposited data

Results flagged for a closer look

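The second AQP4 probe read 9.59 in saline 1, far below the nearest saline sample at 9.98, while the other 3 saline samples lay close together. The first AQP4 probe did not set saline 1 apart in this way. Of the genes named beside the 5, a probe of ALDH1A1 read 8.06 in dexamethasone 1, against 8.74 in the nearest dexamethasone sample. The check covered the probes of the 5 genes and of some paralogs, and 1 probe each of some other genes named. In it, 74 groups of 4 values were checked for 1 sample far from the others and 2 were found, where chance gives about 1 in 20.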

How the results depend on the processing

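With values relative to the median of all genes where a scaling moved it by over 0.1, APOE (0.36 to 1.22), ALDOC (0.20 to 1.5) and ATP1B2 (-1.06 to -0.27) kept their direction under every alternative run, and as fitted with no normalisation between arrays ATP1B2 stood at -1.40. Leaving out 1 sample gave 0.36 to 0.60 for APOE, 0.33 to 0.82 for ALDOC, -0.63 to -0.39 for ATP1B2, -0.0014 to 0.21 for AQP4 and -0.035 to 0.056 for ALDH1L1. ALDH1L1 stood at -0.0044 with no background correction, -0.087 with processed signals, -0.012 without saline 1, -0.035 without dexamethasone 4 (-0.036 in the fit over probes), -0.025 without the array of saline 1 and saline 2, and -0.093 without the array of dexamethasone 3 and dexamethasone 4. Its probe read -0.0049 in the deposited table. The first AQP4 probe read -0.00093 without dexamethasone 1. The 0.20 for ALDOC, without the array of saline 1 and saline 2, rests on 1 saline value. ATP1B2 passed without the array of saline 1 and saline 2, at -0.78, in a fit with a within-array correlation of -0.32. The cause was not tested.

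The 7 genes and 7 probes that passed became 14 and 14 with processed signals, 0 and 0 with no normalisation between arrays (limma; 3293 genes and 5849 probes at an unadjusted p under 0.05), and 2224 and 3342 at the 75th percentile. Quantile normalisation gave 3 probes, and the filter on all 8 samples 2 probes. A filter on at least 1 sample and no filter each gave 2 genes and 2 probes. There were 29 and 28 with no array block, 18 and 19 with no dye term, and 24 and 12 at an adjusted p under 0.1. Leaving out 1 sample gave 0 to 15 genes and 0 to 11 probes (647 to 2301 genes and 1170 to 4083 probes at an unadjusted p under 0.05), with 0 genes whichever dexamethasone sample was left out and 15 without saline 2. Without the array of saline 1 and saline 2 there were 2149 and 2999, without that of saline 3 and saline 4 213 and 164, without that of dexamethasone 1 and dexamethasone 2 0 and 0 (561 genes and 1031 probes unadjusted), and without that of dexamethasone 3 and dexamethasone 4 2 and 2. Each of these 4 fits leaves a group with 1 array.

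Samples of the same number shared the dye across the groups. The correlations of their deviations were -0.11, -0.13, -0.01 and 0.10, and -0.26, -0.22, -0.11 and -0.10 after the dye was removed. With the replicate number as a block 5 genes and 0 probes passed (3277 probes at an unadjusted p under 0.05), and ATP1B2 stood at -0.52.

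With no normalisation between arrays and then at the 75th percentile, relative to the median of all genes, AQP9 stood at -0.78 and -0.77, NR1H3 at 0.53 and 0.54, APOB at -0.11 and -0.10, SLC16A7 at -0.33 and -0.32, CBS at -0.35 and -0.35, AQP8 at 0.23 and 0.24, and the correlation of AQP4 and AASS at -0.52 and -0.85. GART stood at -0.15 with processed signals. Signal over background limits the dim probes, ATP1B2 among them at 6.44 to 15.0 times background, and its difference was -1.06 with processed signals.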
